A study of Homo sapiens with 30 samples.

Results

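The response to the BET bromodomain inhibitor JQ-1 without added androgen or antiandrogen was examined in MR49F cells by RNA-seq of poly(A) RNA. The comparison was defined by the treatment labels alone and holds 6 of the 30 samples of the series, 3 treated with JQ-1 and 3 treated with vehicle. MR49F is a human castration-resistant prostate cancer cell line that was derived from LNCaP cells under enzalutamide. Cells in both groups were held for 72 h in medium with 10% charcoal-stripped serum, which is depleted of steroids, and were then given 500 nM JQ-1 or the DMSO and ethanol vehicle for 24 h, as the sample labels give it. A figure legend of the study can be read as a longer JQ-1 treatment, and the labels were followed. With the treatment, no androgen and no enzalutamide was added to either group, and "without ligand" or "ligand-free" below means only that. The paper describes such medium as lower in testosterone than medium with standard serum, not as free of it. It also states that the MR49F line was maintained in medium with enzalutamide. Whether drug from that earlier culture remained in the cells of either group was not tested. For reference, levels are also given from the same line in the same serum after 1 nM dihydrotestosterone (DHT) or 10 μM enzalutamide, each with and without 500 nM JQ-1, with 3 samples per condition. All samples come from a single cell line. The study calls the 3 samples of a group biological replicates, each from combined wells, while the labels describe wells plated side by side, so p-values measure only the spread between these samples.

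BET proteins, among them BRD2, BRD3 and the germ-cell protein BRDT, bind acetylated lysines of histones through their bromodomains. BET proteins help to bring the kinase complex P-TEFb, made of CDK9 and a cyclin T, to promoters and enhancers, where it helps paused RNA polymerase II to elongate. JQ-1 occupies the acetyl-lysine pocket and displaces these proteins from chromatin. In prostate cancer cells androgen drives the transcription of KLK3, KLK2 and TMPRSS2.

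The 6 profiles matched the labelled cell type in their luminal markers, of which 12 of 13 listed were at a testable level. Of 14 stromal and mesenchymal markers 2 were also at that level, FN1 and COL1A1, and the list summed to 66.6 FPKM with vehicle. With vehicle, FOLH1 (prostate-specific membrane antigen) averaged 422 FPKM (fragments scaled by transcript length and by library size), KRT8 185 and HOXB13 165, whereas no member of the basal list (KRT5, KRT14, KRT15, TP63, KRT6A) and, of the leukocyte and endothelial list, only CD68 (2.61 ± 0.185 FPKM, SD, n = 3) reached the minimum level for testing. The reads that the authors assigned to genes numbered 1221104 to 1813197 per sample, which was 5.31 to 6.54% of the reads placed on a gene, on no gene or on several with vehicle and 6.88 to 7.66% with JQ-1. The share was 73.0 to 77.8% in the full-serum samples. Where genes overlapped on opposite strands and FPKM was at least 10 in 1 gene and 10 times that of the other, the counts favoured the other gene in 13.9 to 20.4% of 356 to 368 pairs in these 6 samples and in 1.07 to 1.95% of pairs in full serum. Which strand option the counting used is not given in the sources used here. FPKM values were therefore used for the tests below, and count-based values are set beside them. Across genes, replicates correlated at 0.989 to 0.992 and samples of different groups at 0.933 to 0.938, which is across genes and not across independent replicates.

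JQ-1 changed a large part of the transcriptome, mostly by small amounts. Of 12203 genes with at least 1 FPKM in at least 3 samples, 9170 (75.1%) passed an adjusted p of 0.05 (limma on log2(FPKM + 1), Benjamini-Hochberg), 3966 higher (32.5%) and 5204 lower (42.6%). The excess of lower calls depended on the scaling, since with each sample centred on its median 4668 genes were higher and 4515 lower. Of the called genes 61.7% differed by less than 0.5 on the log2 scale. A change of at least 2-fold on the log2(FPKM + 1) scale, which understates changes of low genes, was met by 224 genes that were higher (1.84%) and by 692 that were lower (5.67%), so large decreases were 3.09 times as frequent as large increases. The ratio was 2.17 after median centring (600 against 277 genes) and 1.9 on the counts (901 against 473). A 4-fold change was passed by 20 genes upward and 78 downward. The median log2 change of all genes tested was -0.06. On the counts, edgeR's quasi-likelihood test called 2580 of 11332 genes higher (22.8%) and 2704 lower (23.9%), 46.6% together. Of 4693 genes called by both approaches 4626 moved in the same direction, as did 538 of the 557 strongly decreased and 191 of the 196 strongly increased genes that the count test could examine. Among the 67 genes called in opposite directions, 56.7% shared exonic bases with a gene on the other strand, compared with 21.6% of all genes called by both.

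**Figure D1:**
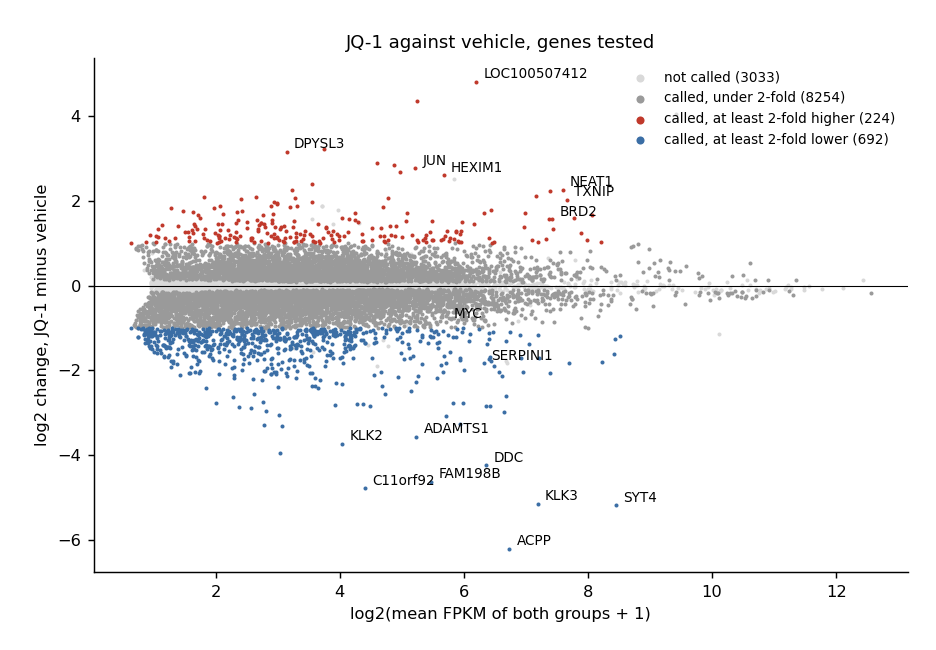
Each point is a gene tested. The x axis gives the mean level of both groups as log2(FPKM + 1) and the y axis the log2 change from vehicle to JQ-1 (limma, 3 samples per group). The 692 genes lowered at least 2-fold are blue and reach -6.21 (ACPP), and the 224 raised at least 2-fold are red and reach 4.80 (LOC100507412).

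Among the 10 largest decreases were ACPP, KLK3 and KLK2, which encode secreted proteins of the prostate. ACPP (current symbol ACP3; chromosome 3, 132036213 to 132087146 on GRCh37), which encodes prostatic acid phosphatase, was at 209, 207 and 210 FPKM with vehicle and at 1.74, 1.72 and 2.08 with JQ-1. This was a log2 change of -6.21 ± 0.0498 (SE; 95% interval -6.32 to -6.09; adjusted p = 7.8e-11), the lowest of all genes tested, and left JQ-1-treated cells with 113-fold less FPKM. SYT4, a synaptotagmin that takes part in vesicle exocytosis, was at 680, 691 and 667 FPKM with vehicle and at 18.9, 16.9 and 17.4 with JQ-1 (log2 change -5.18 ± 0.0441). KLK3, the gene for prostate-specific antigen (chromosome 19, 51358171 to 51364020), was at 277, 282 and 289 FPKM with vehicle and at 6.97, 7.61 and 6.45 with JQ-1, a 40.3-fold reduction (log2 change -5.15 ± 0.0522; adjusted p = 1.7e-10). In these genes the spread between samples of a group was small next to the distance between groups. Its neighbour KLK2 (chromosome 19, 51364824 to 51383823), a kallikrein protease that can activate prostate-specific antigen, fell from 29.5 ± 0.643 to 1.30 ± 0.251 FPKM (SD, n = 3). C11orf92, now named COLCA1 and listed in RefSeq as a long noncoding RNA, fell from 39.9 ± 0.293 to 0.491 ± 0.063 FPKM. FAM198B, now GASK1B, fell from 84.5 ± 2.33 to 2.46 ± 0.0431 FPKM. DDC, the decarboxylase that makes dopamine and serotonin, fell from 155 ± 7.77 to 7.24 ± 0.693 FPKM. ADAMTS1, a secreted metalloprotease, fell from 68.5 ± 2.41 to 4.83 ± 0.167 FPKM and IL1RN, the interleukin-1 receptor antagonist, from 14.3 ± 0.236 to 0.530 ± 0.113 FPKM. The same 9 genes were also called lower on the counts, with log2 changes between -6.75 (ACPP) and -3.65 (ADAMTS1). The remaining entry of the 10 largest decreases was SNORA29, a small nucleolar RNA, at 13.3, 15.6 and 14.5 FPKM with vehicle and listed at 0 in each JQ-1 sample. No read was counted on it in any of the 6 samples.

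Among the 10 largest increases were LOC100507412, DPYSL3, JUN, HEXIM1 and MAP2. LOC100507412, an uncharacterized long noncoding RNA that the annotation used here does not place on a chromosome, was at 4.14, 3.80 and 4.30 FPKM with vehicle and at 140, 142 and 140 with JQ-1 (log2 change 4.80 ± 0.0421, adjusted p = 8.0e-11), and its change on the counts was 2.47. DPYSL3, a collapsin response mediator known from growing axons (chromosome 5, 146770371 to 146889631), was at 0.681, 0.759 and 0.927 FPKM with vehicle and at 14.4, 14.9 and 15.4 with JQ-1, an 18.9-fold rise. MAP2, which stabilizes dendritic microtubules, rose from 2.75 ± 0.136 to 18.7 ± 0.512 FPKM. JUN, a subunit of the transcription factor AP-1 (chromosome 1, 59242517 to 59249720), rose 7.46-fold from 8.55 ± 0.483 to 63.8 ± 2.38 FPKM (log2 change 2.76 ± 0.0469; 3.06 on the counts). PEG10, a retrotransposon-derived imprinted gene, rose from 7.47 ± 0.347 to 53.2 ± 1.72 FPKM, and its exons overlap SGCE on the other strand. NEAT1, the long noncoding RNA around which nuclear paraspeckles form, rose from 65.7 ± 3.63 to 318 ± 3.57 FPKM. For each of these 6 genes the groups were widely separated. HIST2H3C, a histone H3 gene with near-identical copies, rose from 6.25 ± 0.826 to 50.6 ± 0.79 FPKM and could not be tested on the counts. H3F3A, which encodes histone H3.3 and also has near-identical copies, was at 9.47, 0.00234 and 0.00286 FPKM with vehicle and at 16.2, 12.3 and 36.4 with JQ-1 (adjusted p = 0.0082). MIR1307, a microRNA precursor, was at 7.90, 13.1 and 0 FPKM with vehicle and at 22, 34.5 and 61.7 with JQ-1 (adjusted p = 0.016). In H3F3A and MIR1307 the samples of a group were far apart and no read was counted in any of the 6 samples. The MIR1307 call was lost without the third JQ-1 sample (log2 change 2.51).

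**Figure D2:**
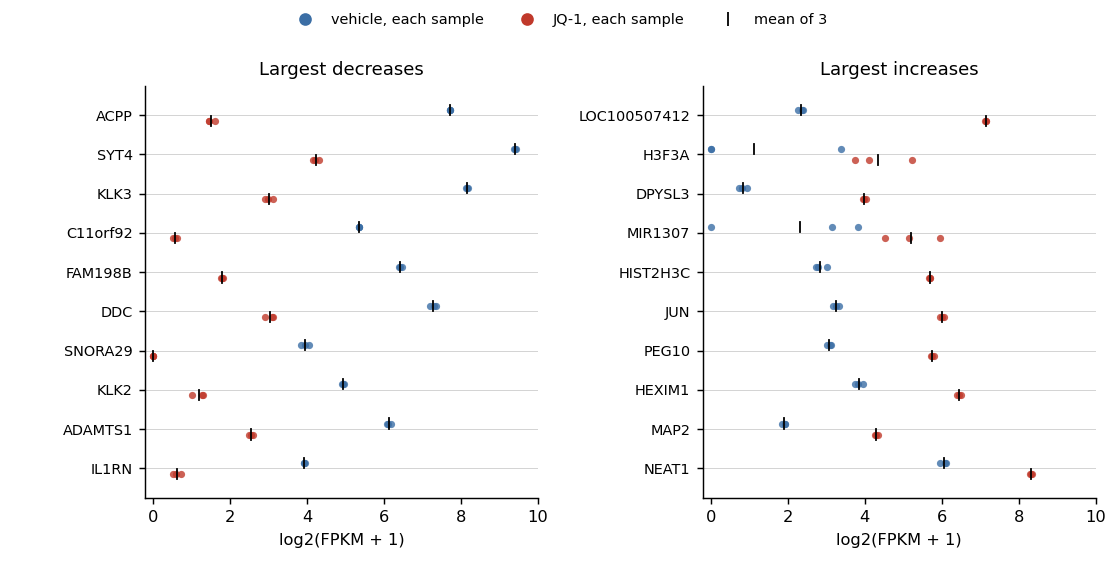
The 10 largest decreases (left) and increases (right) among called genes of at least 5 FPKM whose groups did not overlap. The x axis gives log2(FPKM + 1), points are the 3 vehicle samples (blue) and the 3 JQ-1 samples (red), and black ticks their means. Replicates lie close together except in H3F3A and MIR1307.

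Of 8612 genes at 5 FPKM or more with vehicle, 39 were under 1 FPKM in every JQ-1 sample, but 25 of these were small RNA entries. The other 14 included C11orf92, IL1RN, DOCK10 (11.4 to 0.589 FPKM), a guanine nucleotide exchange factor, CD200 (9.46 to 0.417 FPKM), an immunoglobulin-family surface ligand, and THBD (6.04 to 0.0276 FPKM), thrombomodulin. In the opposite direction 23 genes rose from under 1 FPKM in every vehicle sample to a mean of 5 or more, of which 3 were not small RNA entries, namely DPYSL3, KIAA1683 (0.795 to 5.57 FPKM) and ROPN1L (0.733 to 5.15 FPKM). These genes other than C11orf92, IL1RN and DPYSL3 were named after their values were seen.

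Transcription factors of prostate epithelium moved in several directions when no ligand was added. HOXB13, a homeodomain factor, fell by 0.61 on the log2 scale while FOXA1, a pioneer factor that opens chromatin, rose from 126 ± 5.15 to 159 ± 3.91 FPKM. SPDEF, an ETS factor, fell 8.55-fold, from 31.6, 33.3 and 33.3 FPKM to 3.76, 3.86 and 3.87.

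Of 36 tested androgen-induced targets, 23 were called lower (63.9%, against 42.6% of all genes tested) and 9 higher, with a median change of -0.32 (all genes, -0.06), and 5 fell at least 2-fold. Those 5 were KLK3, KLK2, KLK4, TMPRSS2 and PLA2G2A. TMPRSS2, a membrane serine protease whose exons overlap MX1 on the other strand, was at 22.4, 24.4 and 23.1 FPKM with vehicle and at 8.55, 8.02 and 8.26 with JQ-1 (log2 change -1.39 ± 0.0436; -1.19 on the counts). KLK4, a further kallikrein, fell from 41.9 ± 0.881 to 7.29 ± 0.671 FPKM. FKBP5, a cochaperone of steroid receptors and a strong androgen target, went the other way, from 9.21, 9.14 and 10.2 FPKM to 12.8, 12.5 and 13.5 (log2 change 0.41 ± 0.0505; adjusted p = 0.000103). ACSL3, a fatty acid activating enzyme, rose from 29.1 ± 1.46 to 55.9 ± 0.217 FPKM and ELL2, an elongation factor, from 3.89 ± 0.165 to 7.74 ± 0.207 FPKM. Genes known to be repressed by androgen were also lowered, although no androgen was added. Of 13 tested members 11 were lower and 9 of them at least 2-fold (5.67% of all genes), at a median change of -1.47. DDC is among them, as are CAMK2N1, an inhibitor of calmodulin kinase (177 ± 7.73 to 21.5 ± 0.586 FPKM), PRUNE2 (110 ± 6.41 to 15.1 ± 0.22 FPKM; exons overlap PCA3 on the other strand) and ST7 (log2 change -2.15). CDKN1C was the member that rose, by 0.54.

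KLK3 is shown with its promoter because it responds to androgen and, with no ligand added, lost nearly all of its transcript with JQ-1. The window runs from 250 bases before to 50 bases after the RefSeq start (GRCh38.p14, chr19:50854665-50854964, plus strand). Capitals here and in the later promoters mark matches on either strand. The motif AGAACA is the core of an androgen response element. The motif CACGTG is an E-box, bound by MYC with its partner MAX. The motif CCAAT is bound by the factor NF-Y. The motif TATAAA is a TATA box, and GGGCGG is bound by SP1. In KLK3 AGAACA begins 170 bases before the start and a reverse-strand TATAAA match lies 28 bases before it.
KLK3: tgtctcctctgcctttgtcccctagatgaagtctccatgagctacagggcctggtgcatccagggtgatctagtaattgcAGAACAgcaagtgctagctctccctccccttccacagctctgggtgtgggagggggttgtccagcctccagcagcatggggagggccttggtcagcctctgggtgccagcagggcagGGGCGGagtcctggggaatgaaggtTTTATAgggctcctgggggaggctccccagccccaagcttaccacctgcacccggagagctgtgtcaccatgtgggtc

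**Figure D3:**
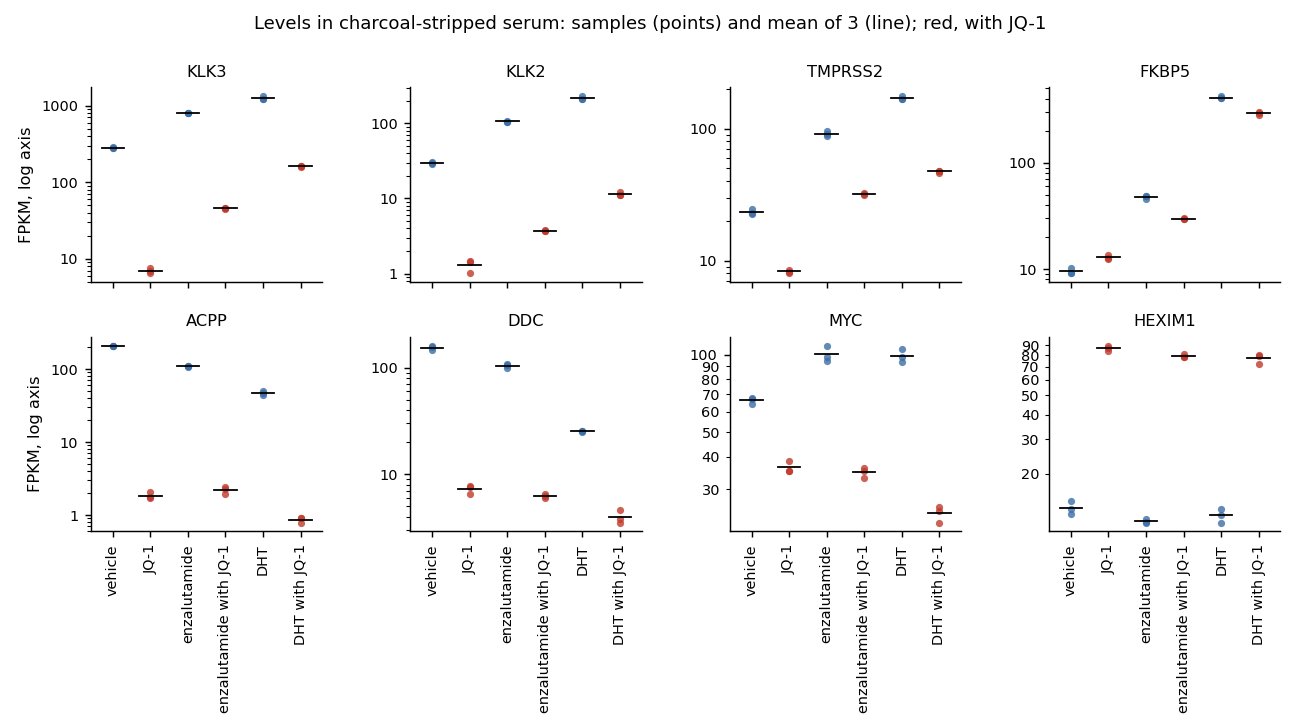
FPKM on a log axis in the 6 conditions in charcoal-stripped serum. Points are samples, lines are means of 3, and red marks conditions with JQ-1. KLK3, KLK2 and TMPRSS2 were lower in JQ-1 than in vehicle, FKBP5 was higher (9.5 against 12.9), and HEXIM1 was at 77.2 to 86.9 in all conditions with JQ-1 and at 11.5 to 13.5 without.

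In the BET and P-TEFb list HEXIM1 and BRD2 rose most. HEXIM1, which holds P-TEFb inactive in a ribonucleoprotein complex and is a common readout of BET inhibition (chromosome 17, 43225842 to 43229466), was at 12.6, 13.3 and 14.6 FPKM with vehicle and at 83.8, 87.1 and 89.6 with JQ-1, a 6.44-fold rise (log2 change 2.60 ± 0.0529; adjusted p = 6.4e-09). On the counts its change was 0.91. BRD2 was at 81.0, 85.1 and 92.2 FPKM with vehicle and at 247, 254 and 266 with JQ-1, and its exons overlap HLA-DMA on the other strand (means of 6 and 17 counted reads). BRD3 fell by 0.19, a 1.15-fold change. CDK9, the catalytic subunit of P-TEFb, rose by 0.20 ± 0.0348, and the calls of BRD3 and CDK9 were not made on the counts. BRDT was not expressed at a testable level. NELFCD, a subunit of the pausing complex NELF, fell from 42.5 ± 1.71 to 25.1 ± 0.86 FPKM. Of 24 tested members 11 were higher (45.8%, against 32.5% of all genes) and 6 lower (25%, against 42.6%), at a median of 0.10, with only BRD2 and HEXIM1 past 2-fold.

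Genes used elsewhere as markers of BET inhibitor exposure were called in all 10 tested cases, 5 higher and 5 lower, where 75.1% of all genes were called. TXNIP, an inhibitor of thioredoxin and of glucose uptake, rose from 77.9, 80.5 and 78.2 FPKM to 326, 322 and 321 (log2 change 2.02 ± 0.0307). HIST2H2BE rose 3.02-fold and SAT1, the polyamine acetyltransferase, rose 2.32-fold. SERPINI1, neuroserpin, was at 122, 125 and 126 FPKM with vehicle and at 34.1, 34.0 and 33.7 with JQ-1 (log2 change -1.84 ± 0.0299; adjusted p = 2.1e-09), although it is known as a gene induced by BET inhibitors. UHRF1, which maintains DNA methylation at replication, fell 9.78-fold, from 4.10 in each vehicle sample to 0.450, 0.433 and 0.376 FPKM. CDK6 stayed below the tested range, with means of 0.172 and 0.231 FPKM.

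HEXIM1 is shown as the marker with the largest rise (GRCh38.p14, chr17:45148225-45148524, plus strand). Its window holds TATAAA 29 bases before the start, CCAAT on either strand and GGGCGG at 124 and 51 bases before the start, and no AGAACA.
HEXIM1: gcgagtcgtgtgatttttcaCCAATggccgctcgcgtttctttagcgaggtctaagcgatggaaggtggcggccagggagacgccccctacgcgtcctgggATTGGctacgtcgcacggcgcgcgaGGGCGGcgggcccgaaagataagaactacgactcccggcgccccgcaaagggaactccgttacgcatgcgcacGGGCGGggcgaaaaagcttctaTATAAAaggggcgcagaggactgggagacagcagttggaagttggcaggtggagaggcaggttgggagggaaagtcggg

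MYC and the genes it drives were moderately lower. MYC was at 64.4, 67.1 and 67.9 FPKM with vehicle and at 35.3, 35.3 and 38.7 with JQ-1, a 1.82-fold decrease (log2 change -0.85 ± 0.0445; adjusted p = 6.5e-07; -0.80 on the counts). Its antagonists MXD1 and MXD4, which compete for the partner MAX, rose by 0.77 and 0.55. Across the MYC network list 3 of 11 tested members were higher and 4 lower. Of 27 tested MYC-induced growth genes 23 were lower (85.2%, against 42.6% of all genes) and 3 higher, with a median change of -0.45. On the counts 15 of the list were called lower, where 23.9% of all genes tested were lower. NME1, a nucleoside diphosphate kinase, was at 92.4, 106 and 107 FPKM with vehicle and at 24.8, 23.9 and 25.6 with JQ-1 (log2 change -1.99 ± 0.0582). RRS1, a ribosome assembly factor, fell from 16.1 ± 1.29 to 7.16 ± 0.489 FPKM, SRM, spermidine synthase, from 72.9 ± 0.847 to 36.5 ± 0.489 FPKM, and TFRC, the transferrin receptor, from 51.9 ± 2.31 to 26.7 ± 0.662 FPKM. ODC1, the rate-limiting enzyme of polyamine synthesis and a MYC target, rose instead, from 179, 189 and 200 FPKM to 329, 334 and 334. The polyamine genes thus split, with AMD1 (60.4 ± 2.91 to 22.9 ± 1.03 FPKM), SRM and 5 other members of 12 lower and ODC1, SAT1 and 3 others higher.

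SRM is shown because it is a MYC target with an E-box in its window (GRCh38.p14, chr1:11059969-11060268, minus strand), with CACGTG 199 bases before the start. CACGTG was present in 11 of 23 promoters of tested MYC-induced growth genes (47.8%) and in 10.4% of 9612 promoters of all genes tested that matched the RefSeq table.
SRM: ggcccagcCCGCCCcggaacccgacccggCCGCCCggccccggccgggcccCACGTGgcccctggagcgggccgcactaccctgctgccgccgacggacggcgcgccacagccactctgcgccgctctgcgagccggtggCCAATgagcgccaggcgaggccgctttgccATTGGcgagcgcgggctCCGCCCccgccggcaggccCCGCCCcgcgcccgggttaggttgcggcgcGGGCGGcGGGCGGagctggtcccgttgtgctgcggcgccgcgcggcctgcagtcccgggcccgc

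Among the lists, histone genes had the largest share of increases. Of 35 tested core and linker histone genes 32 were higher (91.4%, against 32.5% of all genes) and 23 at least 2-fold (1.84% of all genes), at a median change of 1.37. HIST2H2BE (current symbol H2BC21; chromosome 1, 149856009 to 149858232) was at 103, 108 and 113 FPKM with vehicle and at 320, 330 and 332 with JQ-1 (log2 change 1.59 ± 0.0407). HIST1H1C, a linker histone H1, was at 124, 134 and 128 FPKM and at 404, 407 and 411. HIST1H2AC rose from 68.9 ± 6.24 to 179 ± 9.49 FPKM, HIST1H2BJ from 2.72 ± 0.491 to 14.6 ± 0.777 FPKM and HIST1H4E from 9.75 ± 2.68 to 42.9 ± 1.04 FPKM. HIST1H2AG (log2 change 2.25) and H3F3A had no value in the count test. The exceptions were H2AFZ, the variant H2A.Z, which fell from 224 ± 22.3 to 123 ± 8.16 FPKM, and HIST1H2BK, which fell by 0.24. On the counts, where not all members could be tested, 21 were called higher (22.8% of all genes tested there were higher). Most replication-dependent histone messages lack a poly(A) tail and the libraries were made from poly(A) RNA, and many of these genes share sequence, so the values describe the polyadenylated share and may be split between copies. The part of polyadenylation in the result was not tested.

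HIST2H2BE is shown as a highly expressed histone gene (GRCh38.p14, chr1:149886633-149886932, minus strand). CCAAT begins 142 and 77 bases before its start on the forward strand, and TATAAA 30 bases before it. Among 29 matched promoters of tested histone genes 82.8% held CCAAT and 65.5% TATAAA, compared with 37.3% and 4.94% of all matched promoters. Without the listed histone genes, promoters of genes raised at least 2-fold held CCAAT in 45.9% and TATAAA in 10.8% of 148 cases. AGAACA was found in 12% of 516 promoters of genes lowered at least 2-fold and in 8.54% of all. Genes raised at least 2-fold, histone genes included, held it in 4.19% of 167 promoters. The share was 24.1% in the 29 histone promoters and 2.03% in the 148 raised ones without the listed histone genes. These shares describe letters in the windows, and no test was made.
HIST2H2BE: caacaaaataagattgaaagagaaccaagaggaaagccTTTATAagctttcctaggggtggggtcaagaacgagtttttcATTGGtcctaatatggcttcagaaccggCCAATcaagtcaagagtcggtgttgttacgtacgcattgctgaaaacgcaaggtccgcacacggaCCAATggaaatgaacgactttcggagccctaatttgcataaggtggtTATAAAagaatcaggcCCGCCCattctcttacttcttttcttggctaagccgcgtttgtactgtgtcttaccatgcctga

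Of 40 tested DNA replication genes 27 were lower (67.5%, against 42.6% of all genes) and 7 higher (17.5%, against 32.5%), at a median of -0.46 (all genes, -0.06). MCM5, a subunit of the replicative helicase, was at 7.41, 7.90 and 8.06 FPKM with vehicle and at 2.1, 1.69 and 1.91 with JQ-1. RRM2, a subunit of ribonucleotide reductase, fell from 8.96 ± 0.744 to 3.07 ± 0.136 FPKM and CDT1, a replication licensing factor, from 2.52 ± 0.156 to 0.724 ± 0.107 FPKM. On the counts 15 members were called lower, where 23.9% of all genes tested were lower. Of 36 mitotic genes 16 were higher (44.4%) and 10 lower (27.8%) and none changed 2-fold. FOXM1, a transcription factor of the G2 and M phases, fell from 21.6 ± 0.744 to 12.2 ± 0.179 FPKM. UBE2C, a mitotic ubiquitin-conjugating enzyme, fell by 0.88, while CDC20, which activates the anaphase-promoting complex, rose from 21 ± 1.42 to 37.1 ± 0.754 FPKM. Among G1 regulators 11 of 20 were lower (55%) and 7 higher (35%). CCND1, cyclin D1, was at 80.1, 84.1 and 82.3 FPKM with vehicle and at 43.6, 45.1 and 44.2 with JQ-1 (log2 change -0.88 ± 0.0326). CDKN2D and CDKN2B, which inhibit the cyclin D kinases, rose by 1.49 and 0.91, and E2F3 fell by 0.96. CDKN1A, the inhibitor p21, was at 55.5 ± 1.41 and 59.3 ± 1.24 FPKM, a difference of 0.09 whose adjusted p of 0.033 was lost without any of 5 of the 6 samples. Of 25 DNA repair genes 16 were lower (64%, against 42.6% of all genes) and 4 higher (16%, against 32.5%). BARD1, the partner of BRCA1, was at 77.5, 73.0 and 78.4 FPKM and at 16.1, 15.9 and 16.1 (log2 change -2.18 ± 0.0364), and BRCA1 and RAD54L each fell by 0.76.

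The remaining lists are given by counts that are to be read against 32.5% of all genes higher and 42.6% lower. Of the BCL2 family, BCL2 was near the testing limit, at 1.30 ± 0.212 FPKM with vehicle and 0.427 ± 0.127 with JQ-1 (log2 change -0.69 ± 0.0936). MCL1 rose by 0.23 ± 0.0368 (exons overlap ADAMTSL4 on the other strand), and BCL2L1 was at 34.2 ± 0.528 and 32.0 ± 0.756 FPKM (log2 change -0.09, adjusted p = 0.031), a call lost after median centring and without 4 of the samples in turn. BOK, a proapoptotic member, fell from 6.96 ± 0.581 to 1.66 ± 0.107 FPKM, and BIK and BID fell by 0.79 and 0.67. Of 16 tested members 5 were higher (31.2%) and 7 lower (43.8%). Of 20 p53 targets 9 were higher (45%) and 7 lower (35%), led by GADD45A, a growth arrest gene (7.26 ± 0.434 to 23.7 ± 0.555 FPKM), and AEN, an apoptotic nuclease (log2 change -1.05). TP53INP1 and TP53I3 rose by 0.88 and 0.78.

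Cholesterol genes were higher in 6 (26.1%) and lower in 10 (43.5%) of 23 cases, with LSS, lanosterol synthase, and INSIG1, a sterol sensor, up by 0.70 and 0.69 and STARD4 down by 0.61 on the log2 scale. Of 16 fatty acid genes 7 were higher and 7 lower (43.8% each). SREBF1, the master regulator of lipid synthesis, rose from 87.6 ± 1.39 to 185 ± 2.63 FPKM, while ELOVL6, an elongase, fell from 4.99 ± 0.332 to 0.764 ± 0.0695 FPKM and FADS1, a desaturase, fell by 1.13. Among ATF4 and unfolded protein response genes 13 of 24 were lower (54.2%) and 7 higher (29.2%). TRIB3, CHAC1 and XBP1 fell by 1.39, 1.13 and 0.84, and ATF3 rose from 4.25 ± 0.1 to 12.7 ± 0.343 FPKM. Of 18 AP-1 and immediate early genes 6 were higher (33.3%) and 8 lower (44.4%), and JUND rose together with JUN (15.5 ± 0.618 to 42.5 ± 3.33 FPKM) while the phosphatase gene DUSP5 fell by 1.08.

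Interferon-stimulated genes were lower in 8 (57.1%) and higher in 5 (35.7%) of 14 tested cases. ISG15, a ubiquitin-like modifier, was at 49.4, 48.5 and 50.4 FPKM with vehicle and at 16.7, 12.6 and 13.2 with JQ-1, and IFITM3, which blocks virus entry, fell from 46.5 ± 3.48 to 14.7 ± 1.66 FPKM. ISG20 and IFIH1 fell by 1.26 and 0.86. Lysosome and autophagy genes were higher in 20 (57.1%, against 32.5% of all genes) and lower in 6 (17.1%, against 42.6%) of 35 cases, at a median of 0.17. MCOLN1, a lysosomal calcium channel, rose from 6.75 ± 0.671 to 15.1 ± 0.503 FPKM and MAP1LC3B, an autophagosome protein, from 17.6 ± 0.287 to 33.1 ± 0.815 FPKM, NPC2 rose by 0.77, and TFEB, a transcription factor of this set, fell by 0.83. Cytosolic ribosomal protein genes were lower in 18 (37.5%) and higher in 3 (6.25%) of 48 cases by small amounts (median -0.09; RPS23, RPL22, RPL9 and RPS14 fell by 0.33, 0.33, 0.29 and 0.26), and after median centring these counts were 9 and 6, and on the counted reads 5 and 6. Respiratory chain subunits were lower in 21 (48.8%, near the 42.6% of all genes) and higher in 2 (4.65%, against 32.5%) of 43 cases, led by ATP5G1 (118 ± 3.31 to 48.7 ± 2.86 FPKM), NDUFC1 (78.3 ± 3.91 to 37.7 ± 1.84 FPKM), CYC1 and NDUFS8, with 17 lower and 8 higher after median centring and 6 lower and 4 higher on the counted reads.

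Receptor kinase genes were higher in 3 and lower in 3 of 9 cases (33.3% each). ERBB3, a heregulin receptor, fell from 30.2 ± 0.402 to 15.3 ± 0.329 FPKM, FGFR1 rose from 3.86 ± 0.244 to 7.88 ± 0.212 FPKM, IGF1R rose by 0.37, and IRS1 fell by 0.50. Of the neuroendocrine and lineage plasticity list only 6 of 17 members were expressed at a testable level. SYP, synaptophysin, was at 1.69, 1.07 and 1.45 FPKM with vehicle and at 8.56, 9.55 and 9.30 with JQ-1, SOX4 rose from 16.3 ± 0.776 to 48.7 ± 1.36 FPKM and NCAM1 from 1.16 ± 0.0357 to 2.87 ± 0.0832 FPKM, ONECUT2 fell by 0.50, and CHGA and INSM1 were not at a testable level. Of 12 luminal markers 8 were lower (66.7%, against 42.6% of all genes) and 2 higher (16.7%). STEAP1 and STEAP2, surface proteins of prostate cells, were down 3.47-fold and 2.61-fold. FOLH1 and KRT8 did not pass the FPKM test, at 427 ± 11 and 179 ± 2.48 FPKM with JQ-1, while on the counts they changed by 0.20 and -0.35. Of the stromal list FN1, fibronectin, fell from 61.3 ± 0.835 to 11.8 ± 0.286 FPKM and COL1A1 was at 1.65 ± 0.102 and 1.37 ± 0.0234 FPKM, a call lost without 4 of the samples in turn. CD68 fell by 0.48. VIM, DCN and COL3A1 did not reach the testing minimum. Among genes named above, ST7, NELFCD, FOXM1, BOK, TP53INP1, TP53I3, STARD4, FADS1, SREBF1, MAP1LC3B, NPC2, RPS23, RPL22, NDUFC1, RAD54L, FGFR1 and KRT8 also share exonic bases with a gene on the other strand, and their reads may be uncertain to that extent.

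**Figure D4:**
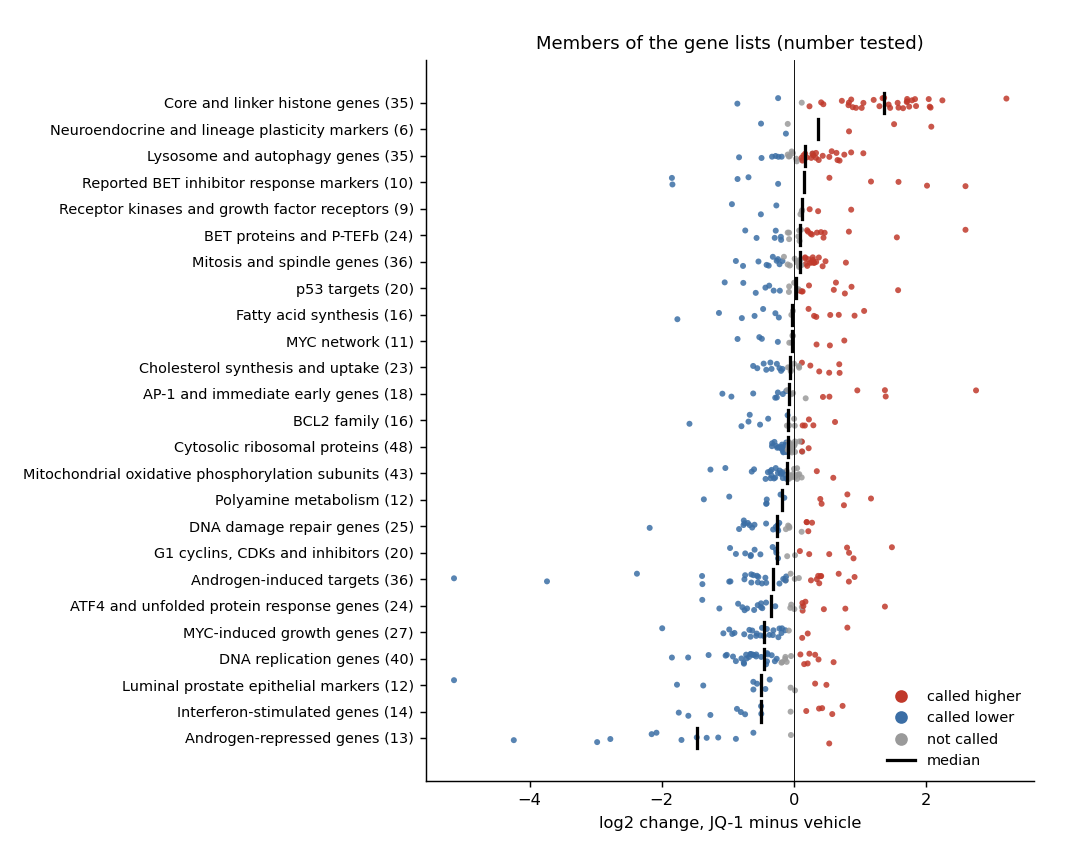
Log2 change from vehicle to JQ-1 (x axis) of every tested member of 25 lists with at least 5 tested members, ordered by the median (black tick). Red and blue points were called higher and lower, grey points were not called. Histone genes have the highest median, 1.37, and androgen-repressed genes the lowest, -1.47.

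Most strong JQ-1 changes were also present when a ligand was added, in samples that the ligand-free comparison did not use. Of the 692 strongly lowered genes 605 could be tested in DHT with JQ-1 against DHT, where 574 were lower (94.9%; 43.3% of all genes there) and 394 at least 2-fold (65.1%; 7.64% of all genes). These 394 were 43.5% of the 906 genes lowered at least 2-fold under DHT. With enzalutamide 656 of 662 were lower (99.1%; 44.4% of all genes) and 520 at least 2-fold (78.5%; 6.9% of all genes), which was 62.1% of 838. Of the 224 strongly raised genes 213 of 217 were higher under DHT (35.5% of all genes) and 217 of 219 under enzalutamide (31.2%), with 175 and 177 at least 2-fold (3.87% and 2.16% of all genes), which was 38.1% of 459 and 67.6% of 262. The median change of the strongly lowered genes was -1.28 without ligand and -1.21 with DHT, over the 605 genes. The tests under a ligand were added after the data were seen.

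**Figure D5:**
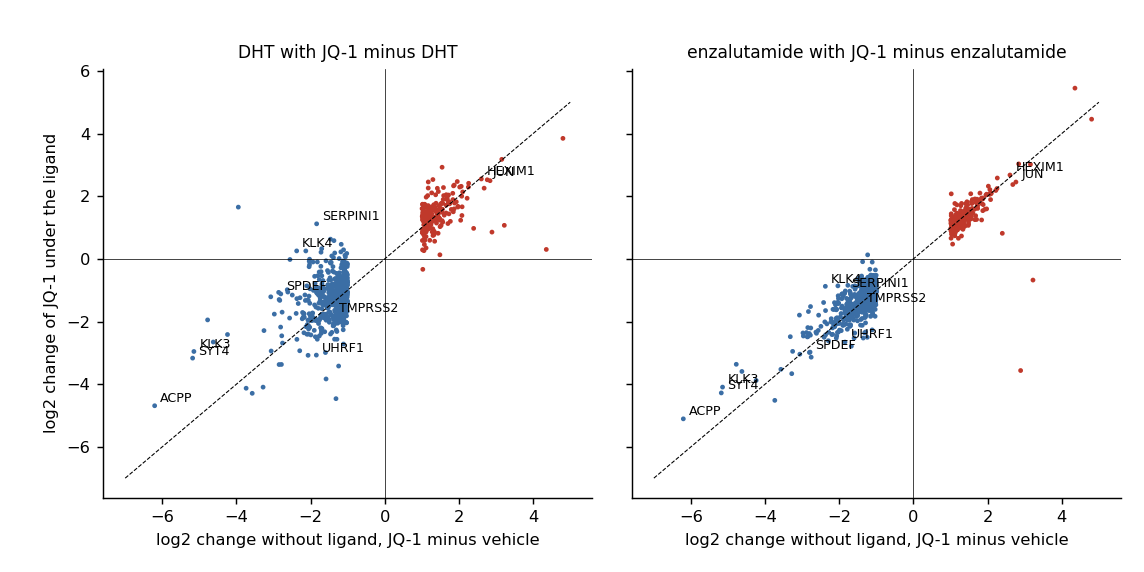
Genes changed at least 2-fold by JQ-1 without ligand, with that log2 change on the x axis and the JQ-1 change under DHT (left) or enzalutamide (right) on the y axis. The dashed line marks equal changes. With DHT 10 of 605 lowered genes were called higher, SERPINI1 and KLK4 among them, and with enzalutamide none of 662.

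The size of the JQ-1 effect nevertheless depended on the ligand. In models of 12 samples the JQ-1 change with DHT differed from that without it for 5983 of 12469 genes (48%), and with enzalutamide for 2389 of 12454 (19.2%). With DHT 25% of genes had a more positive and 23% a more negative JQ-1 change than without, and with enzalutamide 7.55% and 11.6%. HEXIM1 showed little of this, with differences of -0.05 ± 0.0901 for DHT and 0.07 ± 0.0655 for enzalutamide that did not pass the test (adjusted p = 0.66 and 0.48). On the counts the differences numbered 1428 and 104. KLK3 was at 1258 ± 61 FPKM with DHT and 161 ± 2.7 with DHT and JQ-1, so that its log2 change of -2.96 was smaller by 2.19 ± 0.0708 than without ligand. In levels, JQ-1 without ligand left KLK3 at 7.01, JQ-1 with enzalutamide at 45.9 and JQ-1 with DHT at 161 FPKM. SERPINI1 was at 10.5 ± 0.94 FPKM with DHT and 24.0 ± 0.946 with DHT and JQ-1, a rise of 1.12 where the ligand-free change was a fall of 1.84. FKBP5, higher with JQ-1 alone, was lower with JQ-1 under DHT (409 ± 10.5 to 290 ± 8.02 FPKM) and under enzalutamide (47.6 ± 1.84 to 29.7 ± 0.345 FPKM). MYC was at 98.8 ± 5.63 and 24.1 ± 1.72 FPKM without and with JQ-1 under DHT, a larger fall by 1.14 ± 0.0807.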

How the data were processed

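MR49F RNA was poly(A)-selected and sequenced from strand-specific libraries. The authors aligned reads to hg19 with TopHat 2.0.9 and deposited FPKM values from Cufflinks 2.1.1 and, separately, raw read counts per gene from HTSeq. FPKM is already scaled by library size and transcript length and holds no depth, and in charcoal-stripped serum few reads were counted on genes, so FPKM gave the leading values.

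FPKM were summed by gene symbol (23616 symbols). Genes that reached 1 FPKM in 3 or more samples were tested on log2(FPKM + 1) with limma 3.58.1 (lmFit, eBayes with trend) in R 4.3.3, with Benjamini-Hochberg adjustment and a threshold of 0.05. The deposited counts were tested with edgeR 4.0.16 (quasi-likelihood, TMM). Differences of the JQ-1 effect between ligand conditions were contrasts in models of 12 samples. On simulated data for JQ-1 against vehicle, FPKM testing recovered 50 of 50 genes at a fold of 1.5 and called 10 unchanged genes of 12188 genes run. The simulation gave all genes the same spread and changed only a few, each of at least 5 FPKM with vehicle. It therefore does not measure the error among the real calls or the recovery of lower genes.

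The genes and lists, and the comparison, were chosen with earlier results of these data known. Genes named were the 10 largest increases and decreases with no overlap and at least 5 FPKM, and a fixed set. The fixed set holds BET, androgen-response, MYC, G1 and BCL2 family genes. Also named were up to 4 called members per list by size and the 5 largest differences per ligand. PLA2G2A, marker genes and other list members were named in addition after their values were seen. Some genes that the rule names, and a list, are not reported here. Gene positions are GENCODE 44 on GRCh37, and promoters are RefSeq on GRCh38.p14 (1 start per gene). Same-numbered vehicle and JQ-1 samples deviated together only in part (r of their deviations -0.03, 0.17 and 0.30). Over all 6 groups the mean r was -0.005 for the same number and 0.002 for different ones, and no source states a shared batch. Alternatives were another pseudocount, no filter, median centring, a replicate block, all 6 groups in a single fit, an equal-variance test, the counts with edgeR or DESeq2 1.42.0, and each sample left out.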

Additional observations from a re-analysis of the deposited data

Results flagged for a closer look

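The JQ-1 change differed with DHT for 5983 genes and with enzalutamide for 2389, by limma's test of the difference itself. The values below are the JQ-1 log2 change with the ligand minus that without it, and all pass an adjusted p of 0.05. Among abundant differences with DHT were MYBPC1 (-4.23), a myosin-binding protein, ORM1 (-3.69), an acute-phase plasma protein, and ST6GALNAC1 (-3.67), a sialyltransferase. MYBPC1 was at 59.4 FPKM with DHT and 0.82 with DHT and JQ-1, but at 0.90 and 0.07 without ligand. At levels under 1 FPKM the log2(FPKM + 1) scale understates a change, so the size of -4.23 depends on that scale. On the counts the MYBPC1 and ORM1 differences did not pass the test. The small RNA entries SNORA29 (5.6) and SNORA47 (-5.51) also passed, and SNORA47 lost its call without the filter on low values.

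The fixed set of named genes holds BET and androgen-response genes but also MYC, CCND1, CDKN1A, BCL2L1 and MCL1. In this set the differences with DHT were 2.96 for SERPINI1, 2.19 for KLK3, 0.43 for HIST2H2BE and 0.36 for FOXA1. They were 0.36 for CCND1, 0.35 for HOXB13, 0.26 for BCL2L1 and 0.25 for MCL1. Negative differences were -1.14 for MYC, -0.90 for FKBP5, -0.43 for TMPRSS2, -0.39 for KLK2 and -0.39 for BRD2. Of this mixed set 13 of 18 genes tested had a difference, where 48% of all genes passed. The sign for KLK2 holds only on the log2(FPKM + 1) scale, since KLK2 was at 1.30 FPKM with JQ-1 alone. In mean FPKM KLK2 fell from 29.5 to 1.30 without ligand and from 219 to 11.5 with DHT, a proportionally smaller fall with DHT.

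With enzalutamide the differences were -6.45 for MIR1307, -5.70 for SNORA59A and -3.90 for H3F3A, which are short or multi-copy entries, -2.62 for MYBPC1 and -2.01 for ST6GALNAC1. Of the same fixed and mixed set 8 of 18 passed, against 19.2% of all genes. These were KLK3 (1.05), SERPINI1 (0.81), HIST2H2BE (0.30), CDKN1A (0.20), BRD2 (-0.21), MYC (-0.64), KLK2 (-0.78) and FKBP5 (-1.07).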

How the results depend on the processing

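Among the alternatives run, 0 of the 1772 values counted for named genes were classed as reversed. The KLK2 difference with DHT, however, has the other sign in mean FPKM without the added 1. The balance of calls did turn for all genes after median centring (4668 higher, 4515 lower) and for ribosomal protein genes on the counts (6 higher, 5 lower, against 3 and 18). On the counts it also turned for cholesterol genes (7 higher, 3 lower), the BCL2 family (4 and 2), AP-1 genes (6 and 3) and polyamine genes (5 and 4). For AP-1 genes it also turned after median centring (7 and 6) and without the second JQ-1 sample (6 and 5), and for p53 targets under 6 alternatives (for example 5 higher and 7 lower with the equal-variance test or without the second JQ-1 sample). For named genes 1723 of 1772 values stayed on the same side of the threshold and 49 did not, which concerned 19 of 134 results, 7 of them on FPKM. For lists 654 of 728 counts stayed within 1.5 times. The total of called genes was 5284 with edgeR on the counts (2580 higher, 2704 lower) against 9170 on FPKM, and 473 genes rose and 901 fell at least 2-fold there. With a pseudocount of 0.1 the 2-fold counts were 393 higher and 1108 lower. On the counts the differences from DHT and enzalutamide numbered 1428 and 104. The cause was not tested. With the samples left out in turn, calls ranged from 8583 to 8861 (3714 to 3878 higher, 4869 to 5105 lower), 2-fold increases from 220 to 233 and decreases from 685 to 717, differences with DHT from 5454 to 5910 and with enzalutamide from 1781 to 2429, and calls on counts from 4570 to 5092 (2229 to 2499 higher, 2331 to 2593 lower). The labels' numbers did not pair the samples consistently. For vehicle and JQ-1 the mean correlation of deviations was 0.146 for the same number and -0.073 for different ones. Over all 6 groups it was -0.005 and 0.002. A replicate block gave 9305 calls on FPKM, 5101 on the counts, 6462 differences with DHT and 2221 with enzalutamide. DESeq2 called 3705 genes.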
